A study of Drosophila melanogaster and Drosophila simulans and Drosophila yakuba with 12 samples.

Results

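The comparison set the microRNAs (miRNAs) of male larvae of the fruit fly Drosophila melanogaster against those of female larvae at the same age. All animals were whole larvae of Oregon-R, a wild-type laboratory strain, at the end of their last larval instar. All were grown at 25 °C with 0.05% bromophenol blue, a dye. By their gut colour they stood 18 h from puparium formation, when the larval skin hardens and metamorphosis begins. The members were taken by their labels, 3 of the 12 libraries of the series: 2 male libraries made from separate total RNA samples and 1 female library. The labels do not give the number of animals per RNA sample, and no treatment or genetic change separated the groups. Every library carried a 4-nt index at the end of its 5′ adaptor, next to the small RNA, ACTG in both male libraries and CTGA in the female library. CTGA was used in no other library of the series, so sex and index cannot be told apart. Male library 1 and the female library were prepared in the same pool, and male library 2 in another.

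A miRNA gene is transcribed into a precursor that folds into a hairpin, and the enzyme Dicer cuts the hairpin into a short duplex. Either strand, the 5p arm or the 3p arm, can be kept by an Argonaute protein, where its bases 2 to 8, the seed, pair with target messenger RNAs. In late fly larvae miRNAs are known for roles in body growth, insulin signalling, imaginal discs and sense organs, and a few are known to be confined largely to the testis or ovary.

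Reads on 176 hairpins were summed for 337 mature arms, and the male libraries held 29168 and 10113 reads against 4721 in the female library. A share is the percentage of these reads that fell on an arm, and its 95% exact Clopper-Pearson interval covers counting error only, since PCR reads carry no molecular identifiers. A floor of 3 counts corresponds to a share of 0.0103% and 0.0297% in male libraries 1 and 2 and 0.0635% in the female library. The exact interval of a count of 0, used for the calls, reaches 0.01265%, 0.0365% and 0.0781%. At least 1 read was found in the 3 libraries for 148 arms, at least 10 reads for 79, and no read for the other 189. An arm was called where both male intervals lay on the same side of the female interval without touching it.

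By that rule 10 of the 148 arms (6.76%) were higher in both male libraries and 16 (10.8%) were lower, together 26 arms (17.6%) from 22 miRNAs. The male libraries also differed among themselves, with separate intervals for 47 of 143 arms (32.9%). edgeR, which tests against the spread between libraries, called 0 of 69 arms (0%) at an adjusted p under 0.05. Without adjustment 12 arms had a p under 0.05. DESeq2 called 6 of the 69 (8.7%), 2 higher (2.9%) and 4 lower (5.8%). The sequences below are those of 12 of the called arms, whose shares, partner arms or seed relatives are described in what follows, and of miR-10-3p, the partner of miR-10-5p. They are in lower case with the seed in capitals. All were taken from the deposited alignment text, as its mature sequence or, for miR-282-5p and miR-996-5p, as the commonest read of the arm. The first 5 were higher in both male libraries and the next 7 lower.
miR-282-5p: uAGCCUCUacuaggcuuugucu
miR-275-3p: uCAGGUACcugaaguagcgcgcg
miR-34-5p: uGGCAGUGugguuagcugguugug
miR-9a-5p: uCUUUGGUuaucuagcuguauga
miR-31b-5p: uGGCAAGAugucggaauagcug
miR-305-5p: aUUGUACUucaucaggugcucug
miR-10-5p: aCCCUGUAgauccgaauuuguu
miR-12-5p: uGAGUAUUacaucagguacuggu
miR-996-5p: gCGAACAUggaucuagugcacg
miR-996-3p: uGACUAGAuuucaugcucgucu
miR-958-3p: uGAGAUUCuucuauucuacuuu
miR-79-3p: uAAAGCUAgauuaccaaagcau
miR-10-3p: cAAAUUCGguucuagagagguuu

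**Figure D1:**
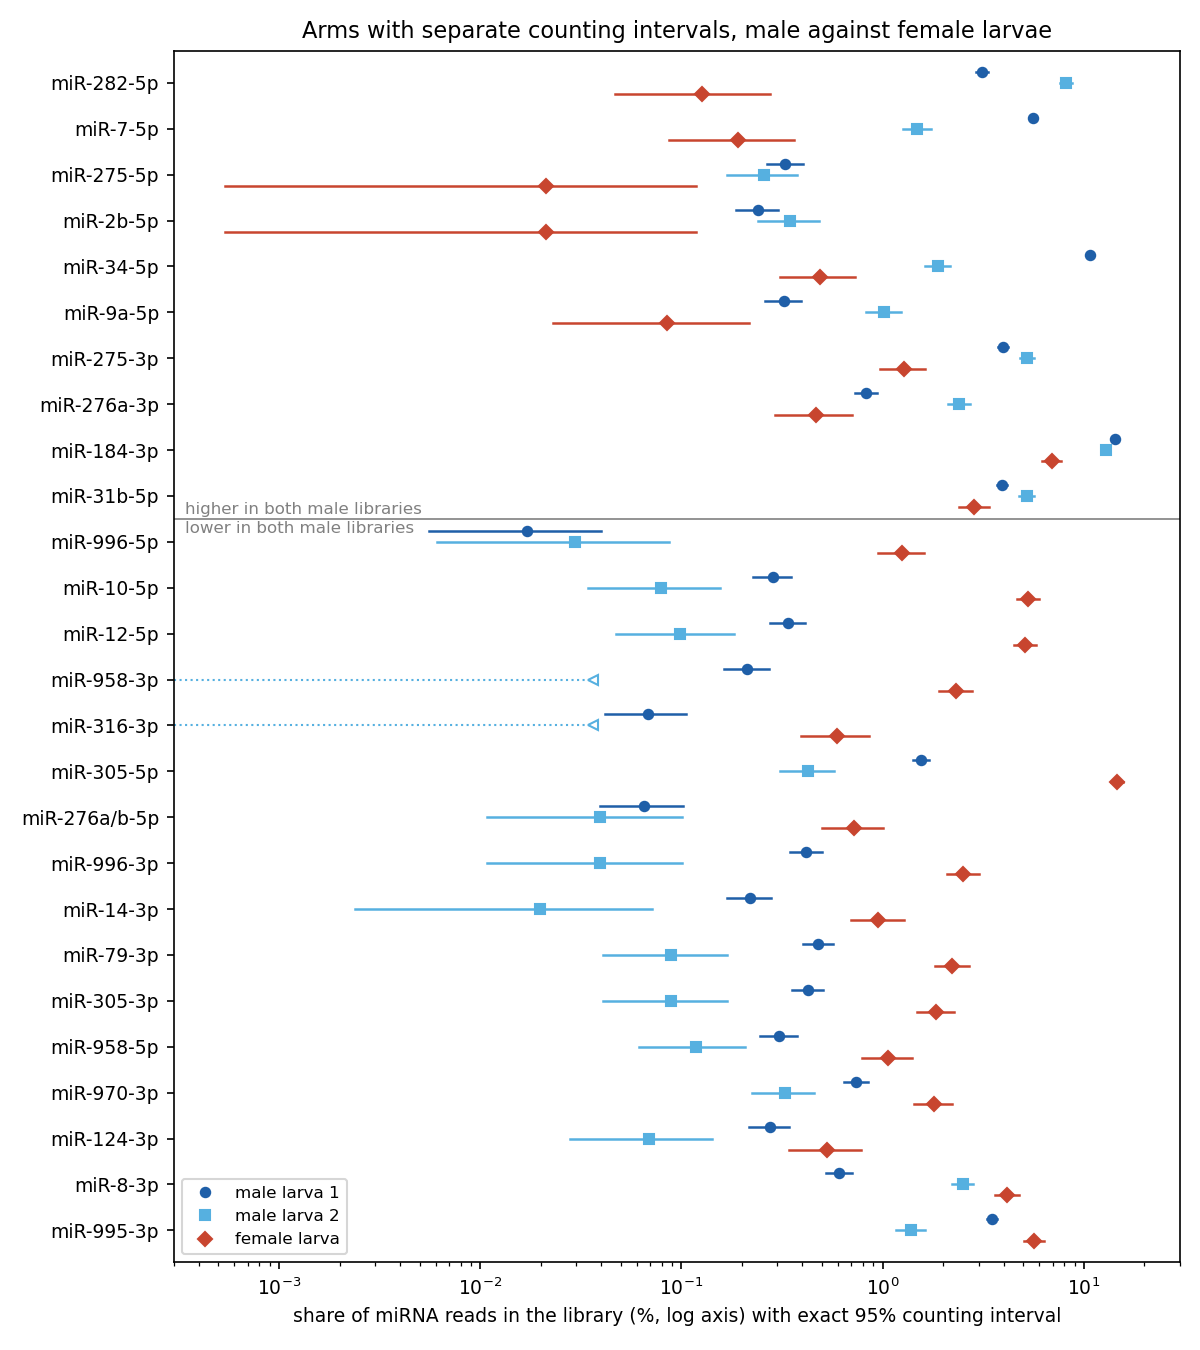
Share of miRNA reads (%, log axis) of the 26 called arms in male library 1 (circles), male library 2 (squares) and the female library (diamonds), with exact 95% counting intervals as bars; an open triangle on a dotted line is the upper bound of a count of 0. The gap is widest for miR-10-5p, miR-996-5p and miR-12-5p among the lower arms and for miR-282-5p among the higher ones, and the male libraries often lie as far from each other as from the female.

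Among the arms higher in male larvae, miR-282-5p stood farthest from the female library. It had 912 reads (3.13%) in male library 1, 824 (8.15%) in male library 2 and 6 (0.127%) in the female library. Both male shares lay far above the female share, 24.6-fold (counting interval 11.3 to 67.2) and 64.1-fold (29.3 to 175.2). edgeR gave a log2 difference of 5.64 ± 2.05 (SE, n = 2 and 1, adjusted p = 0.142), which did not pass. Its hairpin lies in an exon of a non-coding RNA at chr3L:3251022-3251118 (BDGP6, plus strand), and its commonest read began 4 nt inside the mature sequence that the alignment text gives.

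miR-7-5p, which acts in photoreceptor differentiation and on targets of Notch signalling, had 1635 reads (5.61%), 150 reads (1.48%) and 9 reads (0.191%) in male library 1, male library 2 and the female library. miR-34-5p, known in the adult fly for its role in brain ageing, had 3126 reads (10.7%), 191 reads (1.89%) and 23 reads (0.487%). Both arms were highest in male library 1 and lowest in the female library, and the male libraries differed from each other several-fold. For miR-34-5p the ratio to the female share was 22.0 (14.6 to 34.8) in male library 1 and 3.88 (2.51 to 6.26) in male library 2. The edgeR differences were 4.47 ± 2.21 for miR-7-5p and 3.96 ± 2.03 for miR-34-5p on the log2 scale, with an adjusted p of 0.269 for each.

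miR-275 was called higher on both of its arms. miR-275-3p, required in mosquitoes for blood digestion and egg development, held 3.98%, 5.22% and 1.27% of the reads (1161, 528 and 60 reads). The male shares were 3.13-fold (2.42 to 4.13) and 4.11-fold (3.14 to 5.46) above the female share and closer to each other than to it. miR-275-5p, the rarer strand, had 96 and 26 reads in the males against 1 in the female.

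The most abundant called arm was miR-184-3p, known from mutants for its part in female germline development, with 14.4%, 12.8% and 6.93% of the reads (4193, 1299 and 327 reads). Its male shares lay 2.08-fold (1.85 to 2.33) and 1.85-fold (1.64 to 2.10) above the female share, and averaged 13.6% ± 1.08 (SD, n = 2). miR-31b-5p held 3.92%, 5.20% and 2.86%, ratios of 1.37 (1.15 to 1.65) and 1.82 (1.503 to 2.21). The edgeR log2 differences were 1.19 for miR-184-3p and 0.876 for miR-31b-5p, and neither was called. The paralogue of miR-31b-5p, miR-31a-5p, which has the same seed (GGCAAGA), held 6.15%, 13.1% and 5.89%. It was not called, because the interval of male library 1 overlapped that of the female.

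The other 3 higher arms were scarcer. miR-9a-5p, which limits the number of sensory organ precursors by acting on senseless, had 94, 103 and 4 reads. Its seed relatives were not called, with 38, 43 and 3 reads for miR-9c-5p and 17, 86 and 0 reads for miR-9b-5p. miR-276a-3p, known for a dopamine receptor target in fly memory circuits, had 242, 242 and 22 reads, and miR-2b-5p, the rarer strand of a K box miRNA made from 2 loci, had 70, 35 and 1. miR-276a-3p lay just inside the rule, its nearest male bound 1.03 times the female bound, and miR-283-5p (134, 37 and 6 reads) just outside, at 0.932 times.

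Among the arms lower in male larvae, miR-305-5p was the most abundant. In adult flies miR-305 is known to act on the Notch and insulin pathways in intestinal stem cells. It was the commonest arm of the female library with 692 reads (14.7%), against 452 (1.55%) in male library 1 and 43 (0.425%) in male library 2. The female share was 9.46-fold (8.39 to 10.7) and 34.5-fold (25.3 to 48.1) higher than the male shares. The log2 difference in edgeR was −3.63 ± 1.53 (adjusted p = 0.184). The rarer strand moved the same way, since miR-305-3p had 124, 9 and 87 reads, or 0.425%, 0.0890% and 1.84%.

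miR-10-5p, whose hairpin lies in the Antennapedia Hox complex at chr3R:6809506-6809582 (BDGP6, minus strand), had 83 reads (0.285%), 8 reads (0.0791%) and 250 reads (5.29%). miR-12-5p, cut from an intron of Gmap at chrX:15509473-15509546 (plus strand), had 99 reads (0.339%), 10 reads (0.0989%) and 241 reads (5.10%). For each of these the female share was at least 10 times either male share, 18.6-fold (14.5 to 24.1) and 66.9-fold (33.5 to 156.8) for miR-10-5p and 15.04-fold (11.8 to 19.2) and 51.6-fold (27.6 to 109.0) for miR-12-5p. The edgeR differences were −4.58 ± 1.72 (adjusted p = 0.142) and −4.27 ± 1.71 (adjusted p = 0.156).

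Both arms of miR-996 were lower in male larvae. miR-996 shares its seed on the 3p arm (GACUAGA) with miR-279, which is known for olfactory neuron identity and circadian output. miR-996-5p had 5 reads (0.0171%), 3 reads (0.0297%) and 59 reads (1.25%), and it had the smallest adjusted p of all arms in edgeR, 0.0706, at a log2 difference of −5.54 ± 1.65. miR-996-3p had 122, 4 and 119 reads, or 0.418%, 0.0396% and 2.52%. miR-279-3p, with 47, 2 and 9 reads (0.161%, 0.0198% and 0.191%), was not called.

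Both arms of miR-958 were lower as well. miR-958-3p had 62 reads (0.213%) in male library 1, 0 in male library 2 and 109 (2.31%) in the female library. The female share was 10.9-fold (7.88 to 15.1) above that of male library 1, and the exact interval of its ratio to male library 2 began at 62.2. miR-958-5p had 89, 12 and 50 reads.

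Another 8 arms were lower in both males at smaller shares or smaller ratios. miR-79-3p, a Brd box miRNA, had 140, 9 and 105 reads, and miR-276a/b-5p, an arm whose reads miR-276a and miR-276b share, had 19, 4 and 34. miR-14-3p, known for restraining cell death and for its part in ecdysone receptor signalling, had 64, 2 and 45 reads. miR-316-3p had 20, 0 and 28 reads, and the exact interval of the ratio of the female share to male library 2 began at 15.2. miR-995-3p held 3.50%, 1.38% and 5.68%, and miR-970-3p, which the naming rule would leave out and which is named after its values were seen, held 0.741%, 0.326% and 1.80%. miR-8-3p, a regulator of insulin signalling and body size through the fat body, held 0.607%, 2.502% and 4.17% (177, 253 and 197 reads). miR-124-3p, a neuronal miRNA, had 80, 7 and 25 reads (0.274%, 0.0692% and 0.529%) and lay just inside the rule at 1.005 times.

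**Figure D2:**
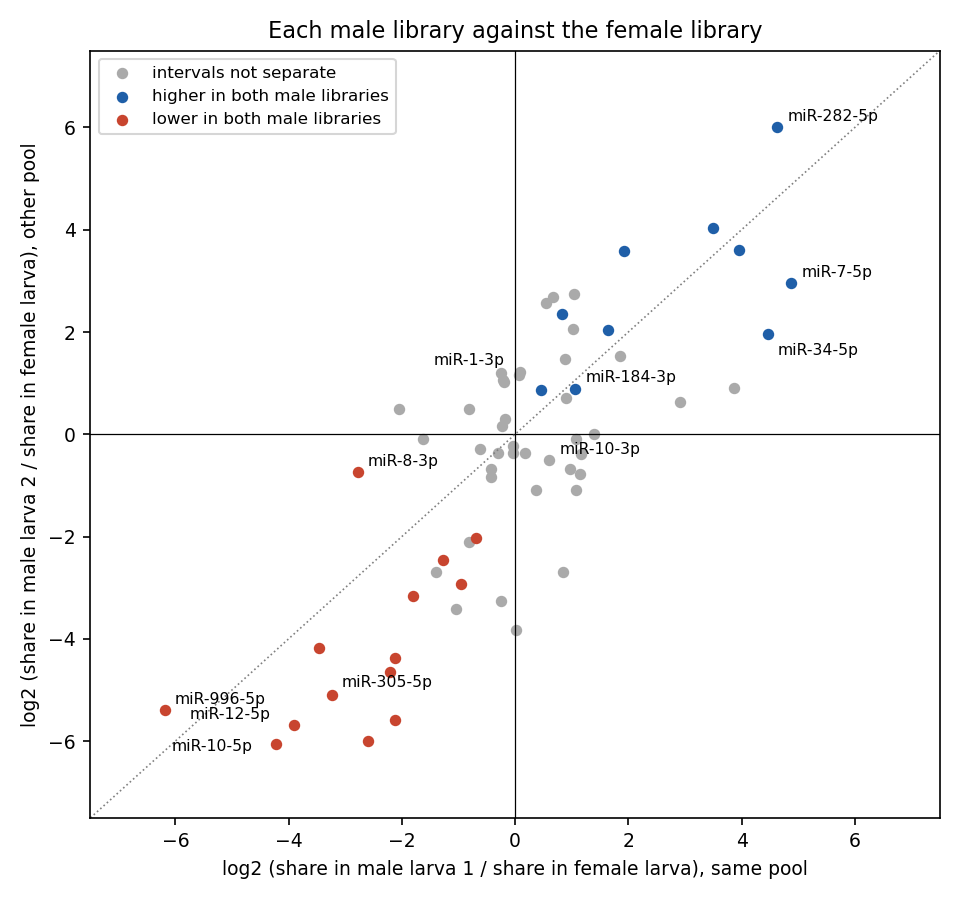
Log2 ratio of each arm's share in male library 1 (horizontal axis, same pool as the female) and in male library 2 (vertical axis, other pool) to its share in the female library, for the 64 arms with at least 10 reads in all and a read in every library. Called arms lie at the upper right and lower left, and most of the lower arms lie below the dotted line of equal ratios, being lower still in male library 2.

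Of the 79 arms with at least 10 reads, both male shares were above the female share for 31 (39.2%), both were below it for 28 (35.4%), and for 20 (25.3%) the female share lay between them or was tied. Among the abundant arms that were not called, miR-10-3p held 12.3%, 5.74% and 8.11%, with the female between the males. miR-1-3p, the muscle miRNA, held 5.66%, 13.2% and 6.48%, again with the female between. miR-8-5p held 2.87%, 4.03% and 3.26%. Against the female library alone, male library 1 had separate intervals for 34 of 136 arms (25%) and male library 2 for 40 of 126 (31.7%).

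With pool as a replicate block, the edgeR fit called 17 of 69 arms (24.6%), 7 higher (10.1%) and 10 lower (14.5%). The blocked log2 difference was 5.14 ± 0.807 for miR-7-5p (adjusted p = 1.22e-06), 4.57 ± 0.809 for miR-34-5p (1.06e-05) and 4.57 ± 1.05 for miR-282-5p (0.000522). It was −3.53 ± 0.634 for miR-12-5p (1.06e-05), −3.595 ± 0.714 for miR-10-5p (6.33e-05), −5.93 ± 1.22 for miR-996-5p (0.000102) and −2.98 ± 0.699 for miR-305-5p (0.000631). These blocked values, from a fit with 1 residual degree of freedom, had the lowest adjusted p of 13 alternative fits, whose highest ranged from 0.440 (miR-996-5p) to 0.962 (miR-305-5p). The 6 calls of DESeq2 were these 7 arms without miR-34-5p. The median log2 difference of all 69 arms was 0.75 under TMM scaling, 0.49 under RLE and 1.39 under upper-quartile scaling, and the differences above are not centred on it. Taken relative to the TMM median, the unblocked edgeR difference was 4.89 for miR-282-5p, 3.72 for miR-7-5p, 3.21 for miR-34-5p, −5.33 for miR-10-5p, −4.38 for miR-305-5p and −6.29 for miR-996-5p. For the other higher arms it was smaller or as small as 0.13. It was 3.21 for miR-275-5p, 3.19 for miR-2b-5p, 2.39 for miR-9a-5p and 1.31 for miR-275-3p. For miR-276a-3p it was 1.22, for miR-184-3p 0.446 and for miR-31b-5p 0.13.

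The 2 arms of a hairpin come from the same precursor, so their ratio does not depend on the library total. miR-276a was left out here, since its 5p reads are shared with miR-276b. Its 5p arm (19, 4 and 34 reads) and 3p arm (242, 242 and 22 reads) were called in opposite directions. Of 17 other miRNAs with at least 20 reads in each library, 2 (11.8%) had a 5p share in both males that was separate from the female. The male libraries were separate from each other for as many (2 of 17, 11.8%). The 5p share was lower in the males for miR-10 (5.88%) and higher for miR-8 (5.88%). For miR-10 the 5p arm made up 2.27% (1.81 to 2.80) and 1.36% (0.589 to 2.66) of the reads of both arms in the males and 39.5% (35.7 to 43.4) in the female. The intervals of the male libraries overlapped there, and the 3p arm, as given above, was not called. For miR-8 the 5p arm made up 82.5% (80.1 to 84.8) and 61.7% (57.8 to 65.4) in the males and 43.9% (38.6 to 49.2) in the female. The male libraries were separate from each other for miR-8. The share of reads at the usual 5′ start was separate for 0 of 17 arms (0%), and so was the share of reads of the commonest length, a measure added after seeing the data. The male libraries differed from each other in start use for 3 of the 17 arms (17.6%) and in length use for 7 (41.2%).

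Neighbouring hairpins that can be cut from the same transcript were also set against each other. Every pair held an arm already called in these same libraries, so a female ratio apart from the males gives those calls no separate support. For miR-305-5p with miR-275-3p it was fixed in advance by the calls. The hairpins of miR-275 and miR-305 start 177 nt apart on the plus strand, at chr2L:7425795-7425892 and chr2L:7425972-7426044 (BDGP6), and their arms were called in opposite directions. The ratio of miR-305-5p to miR-275-3p reads was 0.389 (0.349 to 0.434) and 0.0814 (0.0582 to 0.111) in the male libraries and 11.5 (8.85 to 15.3) in the female. In every prepupal library of D. melanogaster the ratio was below 1, at 0.552 and 0.195 in the males and 0.834 in the female. In 2 libraries of the same D. simulans male prepupa RNA it also differed. It was 0.558 (0.468 to 0.665) with index GACT and 0.228 (0.151 to 0.334) with ACTG. In 2 libraries of the same D. yakuba RNA it was 1.21 (1.07 to 1.365) and 0.739 (0.371 to 1.45), with overlapping intervals. The D. simulans intervals were also separate for both pairs with miR-34-5p below, but not for the other pairs. In the Gmap cluster the ratio of miR-12-5p to miR-283-5p was 0.739 (0.564 to 0.965) and 0.270 (0.1199 to 0.554) in the male larvae and 40.2 (18.2 to 110.5) in the female larva, where miR-283-5p had 6 reads. A ratio as high was found in male prepupa replicate 1, at 42.0 (16.1 to 155.9). It was 1.58 (0.730 to 3.58) in male prepupa replicate 2 and 2.71 (1.85 to 4.04) in the female prepupa. In the cluster inside grp the larval ratio of miR-79-3p to miR-9c-5p was 3.68 (2.56 to 5.42), 0.209 (0.0897 to 0.435) and 35.0 (11.6 to 172.4), highest in the female. Other pairs did not set the female apart from both males. For miR-79-3p to miR-306-5p the ratio was 9.33 (5.47 to 17.1), 1.80 (0.542 to 6.84) and 35.0 (11.6 to 172.4). For miR-277-3p to miR-34-5p it was 0.00736, 0.0314 (0.0114 to 0.0696) and 0.217 (0.0646 to 0.585). In each the female interval overlapped that of a male library. For miR-317-3p to miR-34-5p it was 0.0259, 0.602 and 0.391, with the female between the males.

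**Figure D3:**
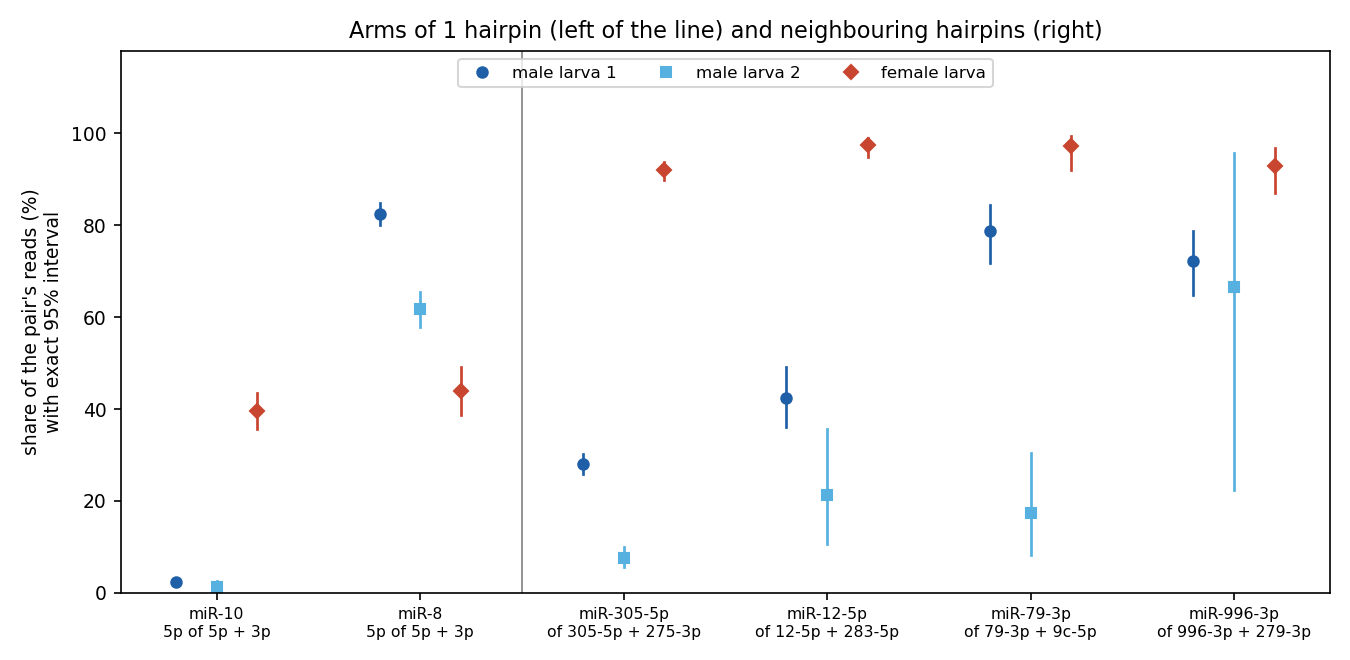
Share (%) of the first-named arm among the reads of a pair, for the 2 arms of miR-10 and miR-8 (left of the line) and for 4 pairs of neighbouring hairpins (right), in male library 1, male library 2 and the female library, with exact 95% intervals as bars. The female value stands apart from both males for every drawn pair but miR-996-3p with miR-279-3p, where male library 2 had 6 reads. Pairs described in the text that did not set the female apart are not drawn. Every drawn pair holds an arm already called in these libraries, so the panel gives those calls no separate support.

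The arms were also grouped by lists of miRNAs with known sites of expression or roles. The lists were chosen with earlier results of these data known, and their counts stand beside the 6.76% and 10.8% of all arms. Of the gonad lists, which bear on the sex labels, testis-rich miRNAs had 36 reads on 10 arms (0.123%, 0.0865 to 0.171) and 25 reads on 9 arms (0.247%, 0.160 to 0.365) in the males. The female library had 3 reads on 2 arms (0.0635%, 0.0131 to 0.186), so the intervals overlapped, and none of the 12 arms with a read was called. Ovary-rich miRNAs had 0 reads in all 3 libraries, and the mir-310 cluster had 23, 24 and 0 reads.

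Imaginal disc and epithelium miRNAs, with miR-184, miR-31a, miR-31b, miR-263a and the miR-9 family among them, held 27.6%, 38.2% and 18.2% of the reads. Of their 13 arms with a read 3 were higher, 0 lower and 10 neither, and all 9 arms tested in edgeR had a log2 difference above 0 (median 1.19) without a call. Over all arms 43 of 69 lay above 0 (median 0.75), and no list held an edgeR call. Growth and metabolism miRNAs held 12.5%, 11.9% and 28.3%, with 1 of 17 arms higher and 5 lower (edgeR median −0.11, 6 of 12 above 0). The digestive tract and Malpighian tubule list held 11.1%, 13.6% and 26.6%, with 2 of 8 arms higher (miR-275) and 3 lower (both arms of miR-305 and miR-8-3p), and had an edgeR median of −0.59 (4 of 8 above 0). miR-305-5p, a member of both, made up 14.7 percentage points of each female sum.

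Nervous system miRNAs held 6.54%, 1.67% and 4.79%, with miR-7-5p higher and 3 of 9 arms lower (miR-996-5p, miR-996-3p and miR-124-3p), and 1 of 6 arms tested in edgeR lay above 0 (median −1.38). The mir-34 cluster held 11.1%, 3.16% and 0.890%, nearly all of it miR-34-5p in male library 1, and miR-277-3p (23, 6 and 5 reads) and miR-317-3p (81, 115 and 9 reads) were not called. The mir-12 cluster held 0.799%, 0.494% and 5.25%, with 1 of 4 arms lower. Steroid-linked miRNAs held 15.2%, 8.69% and 9.002%, with 1 of 10 arms higher and 2 lower (edgeR median 3.05, 7 of 9 above 0). That median is the value of let-7-5p (3.05 ± 4.58), an arm almost without reads in larvae, for which DESeq2 gave 0.51. The let-7 complex had 1, 4 and 0 reads, with let-7-5p, a timing miRNA induced by ecdysone, at 1, 1 and 0. K box and Brd box miRNAs held 3.71%, 3.46% and 4.702%, with 1 of 15 arms higher and 1 lower (edgeR median 0.82, 6 of 9 above 0). miR-13b-3p, their largest arm in male library 2, held 1.03%, 1.35% and 1.21%, and miR-79-3p was larger in the female. Of the Hox cluster 1 of 6 arms was lower, and no arm was called of the muscle, early embryo and mirtron lists, which held 5.66%, 13.2% and 6.48%, 0.854%, 0.0989% and 0.445%, and 0.0926%, 0.0890% and 0.169% of the reads.

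In fruit flies males carry a single X chromosome. Arms encoded on X held 5.71%, 6.21% and 10.00% of the reads, and of 20 X arms with a read 1 was higher in the males (miR-31b-5p) and 2 were lower (miR-12-5p and miR-970-3p), against 6.76% and 10.8% of all arms. Without miR-12-5p the X arms held 5.38%, 6.11% and 4.89%, so the higher female sum rested on that arm. The 5 X arms tested in edgeR had a median log2 difference of 0.88, against 0.75 for all arms.

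The index lies directly before the first base of the small RNA, ending in G in the male libraries and in A in the female, and the called arms were also grouped by their first bases. Over all 79 arms with at least 10 reads 10 (12.7%) were higher and 16 (20.3%) lower. Of 15 arms with at least 10 reads that begin with A, 0 were higher in the males and 5 lower, and these 15 arms held 7.11%, 7.59% and 26.9% of the reads. Without miR-305-5p and miR-10-5p the other 13 held 5.28%, 7.09% and 6.95%. Of 46 arms that begin with U, 9 were higher and 9 lower. Within these, 7 arms begin with UGG, 4 of them higher and 0 lower, with 46.5%, 47.7% and 22.8% of the reads, and 6 begin with UGA, 0 higher and 3 lower, with 2.03%, 1.37% and 10.4%. These groupings were chosen after the values were seen, and their part in the calls was not tested.

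Libraries made from the same RNA with different indexes were set beside these calls. The 2 libraries of a D. yakuba male prepupa RNA, with CGAT and, in another pool, TGAC, held 22483 and 1499 reads and had separate intervals for 17 of 121 arms (14%). The 2 libraries of a D. simulans male prepupa RNA carried GACT and, in another pool, ACTG, the index of the male larvae. They held 23945 and 5220 reads, in that order. On the D. melanogaster hairpins 31 of 116 arms (26.7%) had separate intervals, 20 (17.2%) higher with ACTG and 11 (9.48%) lower. Of the 10 arms higher in male larvae 7 were higher with ACTG, 1 was lower (miR-184-3p) and 2 were neither (miR-9a-5p and miR-31b-5p). miR-282-5p held 11.7% with ACTG and 1.96% with GACT, miR-7-5p 2.18% and 0.0835%, and miR-34-5p 0.383% and 0.0125%. Of the 16 arms lower in male larvae 14 were neither, 1 was higher with ACTG (miR-995-3p) and 1 lower (miR-958-5p). Several of the 14 had too few reads in this pair for a difference to be seen. With GACT and ACTG, miR-958-3p and miR-316-3p had 0 and 0 reads, miR-305-3p 1 and 0, and miR-10-5p 4 and 2. miR-996-5p had 9 and 1, and miR-79-3p and miR-996-3p each 5 and 4. Others had more, such as miR-305-5p (201 and 33) and miR-8-3p (308 and 75). No RNA of the series was sequenced with CTGA and another index, and the part of the index in the sex differences was not tested.

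**Figure D4:**
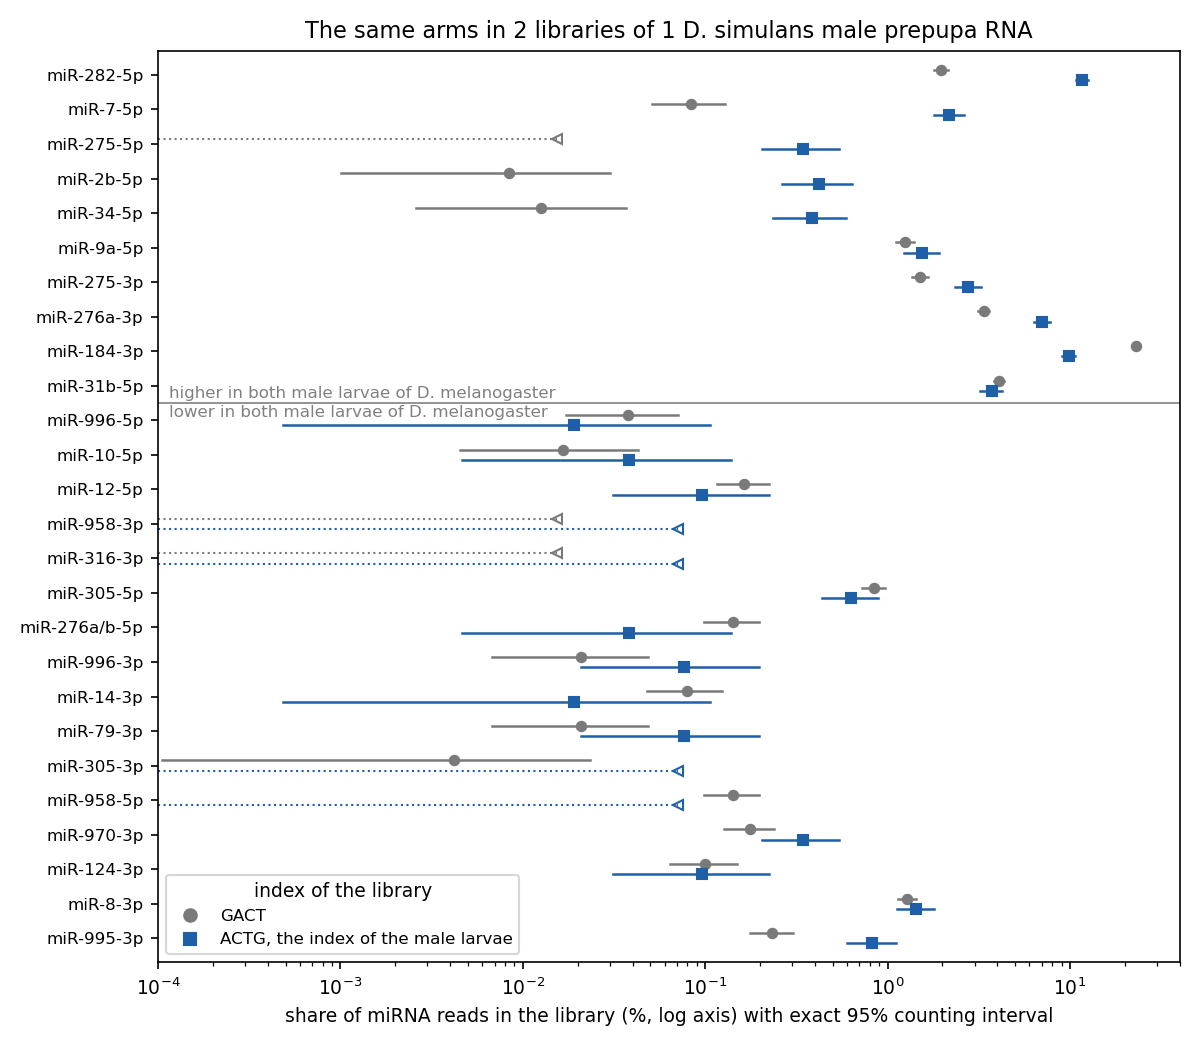
Share of miRNA reads (%, log axis) of the same 26 arms in 2 libraries of 1 D. simulans male prepupa RNA, with index GACT (circles) and ACTG, the index of the D. melanogaster male larvae (squares), with exact 95% intervals as bars and open triangles as upper bounds of a count of 0. Of the 10 arms above the line 7 were higher with ACTG, while for 14 of the 16 arms below it the intervals overlapped, several of them at few or no reads.

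White prepupae, collected at puparium formation, offered the same contrast with other indexes, TGAC in 2 male libraries and GACT in 1 female library. Under the same rule 12 of 172 arms (6.98%) were higher in both male prepupae and 14 (8.14%) lower. Of the 10 arms higher in male larvae 0 were called higher in male prepupae, and for 4 of them both male prepupae lay above the female and for another 4 both lay below. Of the 16 lower arms 2 were called lower in male prepupae too, and both came from miR-958. For these 2 alone both male prepupae lay below the female, and for 7 of the 16 both lay above. miR-958-3p had 1 and 0 reads in the male prepupae against 69 (0.143%) in the female, and miR-958-5p had 20, 9 and 270 reads (0.188%, 0.0997% and 0.560%). In the D. simulans pair miR-958-5p had 34 reads (0.142%) with GACT, the index of the female prepupa, and 0 with ACTG, with separate intervals. There miR-958-3p had 0 reads in both. The part of the index was not tested. miR-305-5p, 14.7% in the female larva, held 2.06% and 0.377% in the male prepupae and 1.49% in the female.

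Another 3 arms lower in male larvae were higher in male prepupae. miR-8-3p held 4.18% and 30.9% in the male prepupae against 0.0685% in the female prepupa, the reverse of the order in larvae. The 2 libraries of the D. yakuba prepupa RNA also differed in this arm, with 2.90% under CGAT and 28.0% under TGAC, which both male prepupae carried. It was the only arm of 69 (1.45%) called in the test of whether the sex difference itself differed between stages, with a log2 difference of −9.31 ± 2.18 (larvae minus prepupae, edgeR adjusted p = 0.00254), while DESeq2 called 2 (2.9%). The 5p share of miR-8 was 26.0% and 4.22% in the male prepupae and 95.1% in the female prepupa. That of miR-10, far higher in the female larva than in the males, was 11.7% and 2.38% in the male prepupae. It was 4.92% in the female prepupa, between the males. Without male prepupa replicate 1 the miR-8-3p value was −10.4 ± 2.54 with an adjusted p of 0.184, and without male prepupa replicate 2 it was −7.25 ± 3.72 with an adjusted p of 0.571, the highest of its alternatives, while the lowest was 6.01e-05 with pool as a replicate block. miR-124-3p held 0.329% and 0.343% against 0.0415%, and in the D. yakuba pair 0.334% (5 reads) under TGAC and 0.0623% (14 reads) under CGAT. miR-995-3p held 3.86% and 1.51% against 1.02%, and 1.13% and 0.912% in that pair. Neither arm passed the test (edgeR adjusted p = 0.400 and 0.663). With pool as a replicate block 25 of 69 arms (36.2%) were called in this test, these 2 among them (adjusted p = 0.00738 and 0.0474).

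**Figure D5:**
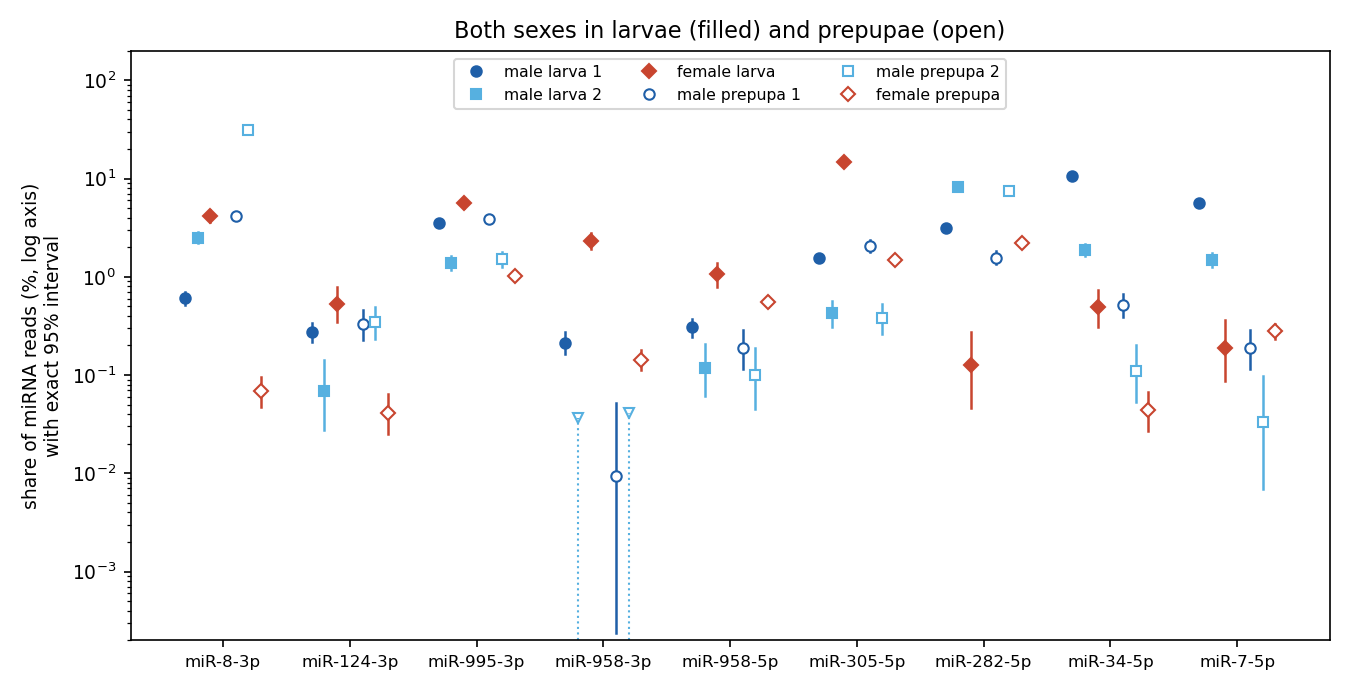
Share of miRNA reads (%, log axis) of 9 called arms in D. melanogaster larvae (filled) and prepupae (open), males in blue (circles and squares for replicates 1 and 2) and females in red (diamonds), with exact 95% intervals as bars and triangles as upper bounds of a count of 0. miR-8-3p, miR-124-3p and miR-995-3p change order between the stages, the female values of both miR-958 arms lie above the males at both, and miR-305-5p stands out in the female larva.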

How the data were processed

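The authors used hairpins of miRBase release 15, per the file headers, and Bowtie 0.12.5, per the submitters' processing notes. The deposited alignment texts hold whole-number read counts per distinct sequence and library, and the deposited summary table holds expected counts, in which a read is divided among its loci. Neither is normalised. The genome build behind the authors' loci is not given in the sources used here, so coordinates come from the Ensembl BDGP6 annotation, matched by hairpin name. Columns of 4 libraries of another series (8 in the summary table) and the hairpin texts of the other species were not used.

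Reads were summed per mature arm from the D. melanogaster text, counting a sequence on several loci of the same miRNA once. Of 2028 cells of the summary table, 3 were over 1 read from these sums. Shares, exact Clopper-Pearson intervals and ratios were computed with SciPy 1.17.1. edgeR 4.0.16 (quasi-likelihood F test, TMM, filterByExpr, Benjamini-Hochberg) was fitted to the unrounded sums of the 6 D. melanogaster libraries (4721 to 48209 reads) as 4 group means. The single female libraries were assumed to vary like the males. The SE of an edgeR difference was its absolute value divided by the square root of the F statistic, so it rests on the spread in all 6 libraries. Sums were rounded for DESeq2. DESeq2 1.42.0, RLE and upper-quartile scaling, other filters and denominators, left-out libraries and pool as a replicate block were alternatives. Same-pool deviations of larvae and prepupae had a correlation of 0.601 over 69 arms, from a single pair of pools. The p-values measure only the spread between these samples. An exact permutation test of 2 libraries against 1 cannot go below 0.333, so none was run. The edgeR steps were tested on simulated data.

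Named arms were at most 12 called in each direction by the gap between bounds, the 10 with the highest mean share, at most 4 of each list, and those called for arm or start use. Members and lists were chosen with earlier results of these data known.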

Additional observations from a re-analysis of the deposited data

Results flagged for a closer look

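The interval rule called 3 arms in both larvae and prepupae with opposite directions. The larval calls of miR-124-3p and miR-995-3p were lost with TMM effective library sizes, and that of miR-124-3p also at the 99% level. For miR-8-3p the difference between the stages was tested, with a log2 value of −9.31 (larvae minus prepupae, edgeR, n = 2 males and 1 female per stage). For miR-124-3p and miR-995-3p the log2 ratio of the mean male share to the female share in larvae was −1.62 and −1.22, both males lay on the other side of the female in prepupae, and neither passed the edgeR test of the difference. The prepupal libraries carried other indexes than the larval ones. In the pair of libraries from the same D. yakuba prepupa RNA, which differ in index, pool and depth, miR-8-3p held 28.0% under TGAC, the index of both male prepupae, and 2.90% under CGAT, miR-124-3p 0.334% and 0.0623%, and miR-995-3p 1.13% and 0.912%, with separate intervals for the first 2. The part of the index in the sex differences was not tested.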

How the results depend on the processing

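Of 160 values recomputed under an alternative, 0 reversed and 30 moved, by more than 1.5 times for a count or by more than the spread between the male libraries (1 SD) for a log2 ratio, or in any way for miR-958-3p and miR-316-3p, which had 0 reads in male library 2. The other 130 stayed within those limits. A count has no direction to reverse. The log2 ratios were of arms called with both males on one side of the female, so leaving out either male could not reverse them. That 0 reversed therefore bears only on log2 ratios under other scalings or denominators. Under the interval rule the higher and lower counts were 10 and 16, against 7 and 15 at the 99% level, 9 and 16 with DESeq2 size factors, 13 and 15 without the 3 most abundant arms, and 14 and 14 with TMM effective library sizes. With a single male library they were 17 to 21 and 17 to 19. Lost at the 99% level were miR-124-3p, miR-275-5p, miR-276a-3p and miR-9a-5p. TMM effective library sizes lost miR-124-3p and miR-995-3p, and DESeq2 size factors lost miR-276a-3p. Without the 3 most abundant arms, of which miR-184-3p is a member, miR-124-3p was lost. The miRNAs with a separate 5p share were 2, against 4 with a minimum of 10 reads and 2 to 4 with 1 male library left out. The edgeR counts (0 higher, 0 lower) became 0 and 1 with RLE scaling (miR-996-5p), 2 and 4 with DESeq2 and 7 and 10 with pool as a replicate block. Leaving out a library gave 0 to 1 higher and 0 to 3 lower; 1 higher and 3 lower were called without male larva replicate 1 (miR-9b-5p; miR-316-3p, miR-958-3p and miR-996-5p) and miR-996-5p alone without male larva replicate 2 or male prepupa replicate 2. For stage by sex 1 call became 2 with DESeq2, 25 with the replicate block and 0 to 6 with a library left out. The causes of these changes were not tested. Depth limited the female library most, where 3 reads make 0.0635%, and the larval libraries alone gave 0 calls in 58 arms. The stage by sex test under upper-quartile scaling, on the summary counts and without the 3 most abundant arms was chosen after seeing the data and gave 1 call each.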
